A study of Mus musculus with 8 samples.

Results

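The Hippo core genes are described here in mouse embryonic fibroblasts (MEFs) with and without SLMAP3, as 10 genes out of the 55401 listed in the table of gene counts. They were taken by name and encode the MST kinases (Stk3, Stk4), their scaffold (Sav1), the LATS kinases (Lats1, Lats2), the MOB1 activators (Mob1a, Mob1b), the upstream activator merlin (Nf2) and the effectors YAP (Yap1) and TAZ (Wwtr1). RNA was sequenced from 4 SLMAP3-/- and 4 WT lines, with 1 library per line. The mice were of strain B6C3F1, and in SLMAP3-/- mice a floxed exon 3 of Slmap had been recombined in the whole animal by a Cre under the CMV promoter. All lines of both genotypes came from E14.5 embryos without head and organs and had been immortalized with SV40 large T antigen, a viral protein that inactivates p53 and RB, so that every comparison is between immortalized, proliferating cells. The labels do not give litter or sex, though SLMAP3-/- line 3 and WT line 4 share the number 10 in their names, with different letters after it.

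In the Hippo pathway, MST1/2 bound to SAV1 phosphorylate LATS1/2 and MOB1, with NF2 bringing LATS to the membrane, and active LATS phosphorylates YAP and TAZ, which are then held in the cytoplasm or degraded. Unphosphorylated YAP and TAZ enter the nucleus and, through TEAD factors, switch on growth genes and also Lats2. SLMAP3 recruits MST1/2 to STRIPAK, a phosphatase complex that removes their activating phosphate. These steps act on proteins, and RNA-seq measures only the transcript supply of each component.

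None of the 10 genes differed between SLMAP3-/- and WT MEFs beyond the spread between lines. Their log2 fold changes lay between -0.09 (Stk4) and 0.01 (Sav1), with 9 below 0 and 1 above, while 50.5% of all 15461 tested genes were below 0. With edgeR's quasi-likelihood test, p adjusted over all tested genes was under 0.05 for 0 of the 10, against 0.00647% of all tested genes, and 0 had an unadjusted p under 0.05, against 1.81%. DESeq2 and limma-voom also gave 0 members at either threshold. Over all genes, DESeq2 gave 11 with an adjusted and 551 with an unadjusted p under 0.05, and limma-voom gave 1 and 269. For all 10 genes the ranges of the genotypes overlapped, whereas 1.25% of tested genes had ranges apart. The median log2 fold change of the members was -0.03, and that of all tested genes was -0.00.

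The promoters of the genes that varied most or moved together across the lines are shown because the line-to-line pattern described further on involves Lats2 with Wwtr1 and Lats1 with Mob1b, and that of Yap1 is shown as the paralog of Wwtr1. Each is the 250 bases before a RefSeq transcript start in GRCm38.p6, written 5′ to 3′ on the strand of the gene, and capitals mark GGAATG, the core letters bound by TEAD factors. They cover chr14:57746124-57746373 (minus strand, Lats2), chr3:57575911-57576160 (minus, Wwtr1), chr10:7680959-7681208 (plus, Lats1), chr5:88720621-88720870 (plus, Mob1b) and chr9:8004597-8004846 (minus, Yap1).
Lats2: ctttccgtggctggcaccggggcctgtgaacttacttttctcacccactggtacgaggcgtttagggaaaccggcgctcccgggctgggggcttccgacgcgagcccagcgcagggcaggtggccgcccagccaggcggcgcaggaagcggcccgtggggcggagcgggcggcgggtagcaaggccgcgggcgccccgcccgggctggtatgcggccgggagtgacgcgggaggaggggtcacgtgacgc
Wwtr1: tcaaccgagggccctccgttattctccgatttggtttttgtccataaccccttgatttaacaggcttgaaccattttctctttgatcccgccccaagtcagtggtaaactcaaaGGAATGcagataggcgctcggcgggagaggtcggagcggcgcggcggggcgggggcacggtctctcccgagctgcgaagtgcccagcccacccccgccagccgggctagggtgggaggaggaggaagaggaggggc
Lats1: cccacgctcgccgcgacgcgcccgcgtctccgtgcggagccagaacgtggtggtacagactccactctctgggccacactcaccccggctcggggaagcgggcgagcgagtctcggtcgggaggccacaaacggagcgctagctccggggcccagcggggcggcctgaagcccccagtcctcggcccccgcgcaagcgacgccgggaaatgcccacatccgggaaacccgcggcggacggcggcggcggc
Mob1b: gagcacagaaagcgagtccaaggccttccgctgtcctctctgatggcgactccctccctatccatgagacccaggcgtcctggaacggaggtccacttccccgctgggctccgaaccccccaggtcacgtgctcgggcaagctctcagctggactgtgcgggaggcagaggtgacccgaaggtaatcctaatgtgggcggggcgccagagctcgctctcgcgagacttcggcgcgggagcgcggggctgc
Yap1: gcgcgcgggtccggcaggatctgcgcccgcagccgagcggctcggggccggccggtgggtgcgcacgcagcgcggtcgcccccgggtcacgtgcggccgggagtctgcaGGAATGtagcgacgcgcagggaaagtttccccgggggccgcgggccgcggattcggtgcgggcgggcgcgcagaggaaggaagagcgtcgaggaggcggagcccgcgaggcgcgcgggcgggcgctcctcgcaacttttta

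On either strand GGAATG was found in the promoters of Wwtr1 and Yap1, at -136 and -141 bases from the start, and also in those of Mob1a and Sav1. It was not found in this window of Lats2, Lats1, Mob1b, Stk4 or Nf2, and the window of Stk3 was not read here. The AP-1 letters TGANTCA, searched on both strands, were in none of the 9 genes' windows. Of all 32851 promoter windows of the same length, 12.6% held GGAATG and 6.75% held TGANTCA, so a match here is a description of the letters only.

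The labels were checked first on Slmap. Its level was 44.3, 32.7, 36.3 and 39.7 CPM (counts per 1000000, after scaling of the libraries by edgeR's TMM method) in SLMAP3-/- lines 1 to 4, and 124, 139, 143 and 141 CPM in WT lines 1 to 4. The ranges of the genotypes were far apart, with 28.0% of the WT mean left in SLMAP3-/- lines and a log2 fold change of -1.84 (SE 0.11, adjusted p = 0.00119 in edgeR's quasi-likelihood test), and no other tested gene passed the threshold. The count sums all exons and isoforms, so it does not single out exon 3. Total estimated counts were 49879059 to 63322486 per line. All 10 fibroblast markers were present, summing to 16506 to 24521 CPM per line, with Fn1 highest at a mean of 7148 CPM. Among markers of other cells, sums per line reached 5.81 CPM for epithelium, 4.92 for blood and 0.578 for muscle. The endothelial sum was 9.56 to 41.9 CPM, nearly all from Kdr and Tek, with Pecam1 and Cdh5 near 0, and the neural sum was 16.0 to 37.7 CPM, from Tubb3 and Sox2, with Sox10 at a mean of 0.0223 CPM.

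**Figure D1:**
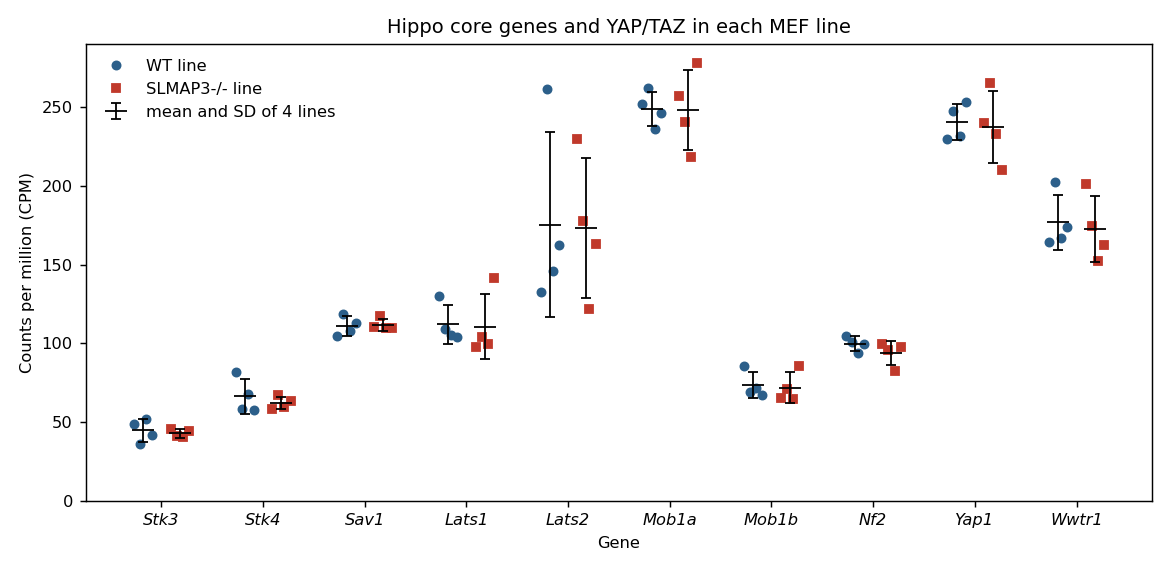
Normalized level in CPM (vertical axis, from 0) of the 10 genes in each WT line (blue circles) and SLMAP3-/- line (red squares), with lines 1 to 4 from left to right and the mean and SD of 4 lines in black. The genotypes overlap for every gene, and Lats2 has the widest spread, from 122 to 261 CPM.

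The MST kinases start the cascade. Stk3, which encodes MST2 (chromosome 15 of GRCm38, 34875496 to 35178921), had 45.7, 40.8, 40.2 and 44.2 CPM in SLMAP3-/- lines 1 to 4 and 48.5, 36.1, 52.2 and 42.0 CPM in WT lines 1 to 4. The SLMAP3-/- lines all fell inside the range of the WT lines, of which line 3 was highest and line 2 lowest. Its log2 fold change was -0.06 (95% interval -0.35 to 0.22). Stk4, encoding MST1 (chromosome 2, 164070322 to 164155524), had 58.4, 67.3, 59.7 and 63.2 CPM in SLMAP3-/- lines and 81.5, 58.1, 67.9 and 57.7 CPM in WT lines. Here WT line 1 stood highest, and the WT lines enclosed all 4 SLMAP3-/- lines. The log2 fold change of Stk4 was -0.09 (95% interval -0.37 to 0.19), and without WT line 1 it was 0.03. The scaffold Sav1 (chromosome 12, 69965012 to 69987002), which holds MST kinases in dimers, was the steadiest of the 10, with 111, 117, 109.5 and 109 CPM in SLMAP3-/- lines and 104 to 119 CPM in WT lines. Its highest line exceeded its lowest by 1.14-fold, and 99.0% of tested genes had a wider range, and its log2 fold change was 0.01 (95% interval -0.16 to 0.17).

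Of the LATS kinases, which phosphorylate YAP and TAZ directly, Lats2 varied more between lines than the MST kinases or Sav1 did. The highest line of Lats1 exceeded its lowest by 1.45-fold, against 1.44-fold for Stk3 and 1.41-fold for Stk4. For Lats1 (chromosome 10, 7681214 to 7716460) the SLMAP3-/- lines 1 to 4 had 97.4, 104, 99.5 and 141 CPM and the WT lines 130.1, 109, 105 and 104 CPM. One line of each genotype, SLMAP3-/- line 4 and WT line 1, stood above the other 6, which lay within 97.4 to 109 CPM. The log2 fold change of Lats1 was -0.02 (95% interval -0.34 to 0.30), and it was -0.16 without SLMAP3-/- line 4 and 0.07 without WT line 1. Lats2 (chromosome 14, 57689662 to 57758388, 31.2 Mb from Slmap) had 229.7, 178, 122 and 163 CPM in SLMAP3-/- lines and 132, 261, 146 and 162 CPM in WT lines. A different pair stood high, SLMAP3-/- line 1 and WT line 2, again 1 line of each genotype. Lats2 spanned 2.14-fold from lowest to highest line, against a median of 1.73-fold over all tested genes, and it was the only member above that median. Its log2 fold change was -0.02 with the widest interval of the members, -0.60 to 0.56, which is 0.660 to 1.48 times the WT level. It moved to -0.18 without SLMAP3-/- line 1 and to 0.24 without WT line 2, and its lowest adjusted p with any 1 line left out was 0.999 in edgeR's quasi-likelihood test. By sequence, 56.7% of the 31-base words of the longest coding Lats2 transcript also occur in another gene, chiefly Gm49361, which overlaps it on the same strand and shares a stretch of 2956 bases. Gm49361 took 17 to 129 estimated counts per line against 7581 to 13501 for Lats2, at most 0.963% of both together.

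MOB1 proteins bind and activate LATS. Mob1a (chromosome 6, 83326016 to 83343776) had 257, 240.2, 218 and 278 CPM in SLMAP3-/- lines 1 to 4, a range that enclosed all WT lines, at 252, 262, 236 and 246 CPM. Its log2 fold change was -0.00 (95% interval -0.22 to 0.21). Mob1b (chromosome 5, 88720855 to 88764220) had 65.4, 71.1, 64.8 and 85.9 CPM in SLMAP3-/- lines and 85.6, 69.2, 71.5 and 67.4 CPM in WT lines, so that SLMAP3-/- line 4 and WT line 1 stood highest, as they did for Lats1. The log2 fold change of Mob1b was -0.03 (95% interval -0.30 to 0.24). Nf2 (chromosome 11, 4765845 to 4849536), the tumour suppressor merlin, had 99.4, 95.6, 82.3 and 97.6 CPM in SLMAP3-/- lines and 105, 101, 93.8 and 99.2 CPM in WT lines. SLMAP3-/- line 3 was lowest and the other 3 lay among the WT lines. Nf2 had the lowest unadjusted p of the 10 genes, 0.321 in edgeR's test, at a log2 fold change of -0.09 (95% interval -0.28 to 0.10), and it was the 1 member whose sign stayed below 0 whichever line was left out (-0.12 to -0.03).

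The effectors were among the most abundant members. Yap1 (chromosome 9, 7931999 to 8004596) had 239.8, 265, 233 and 210.1 CPM in SLMAP3-/- lines 1 to 4 and 229.6, 247, 232 and 253 CPM in WT lines, all 4 WT lines lying inside the range of the SLMAP3-/- lines. Wwtr1 (chromosome 3, 57455649 to 57575910) had 201, 175, 152 and 162 CPM in SLMAP3-/- lines and 164, 202, 167 and 174 CPM in WT lines, with SLMAP3-/- line 1 and WT line 2 highest, the same pair as for Lats2. The log2 fold change was -0.02 for Yap1 (95% interval -0.23 to 0.19) and -0.03 for Wwtr1 (95% interval -0.29 to 0.22). For the 9 genes other than Lats2, the intervals together ran from 0.773 to 1.23 times the WT level. The adjusted p was 1.00 for each of the 10 in edgeR's quasi-likelihood test, and their two-sided exact permutation p ranged from 0.286 (Nf2) to 1.00 (Lats2), where 4 lines against 4 allow no p below 0.0286. A p that misses the threshold does not show equal levels, and the intervals give what these lines leave possible.

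**Figure D2:**
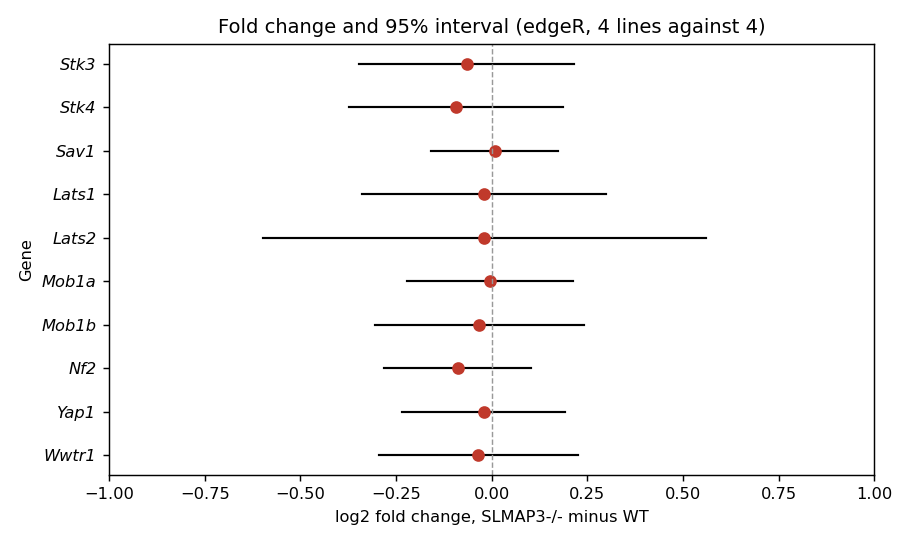
The log2 fold change (horizontal axis, SLMAP3-/- minus WT) of each gene from edgeR with its 95% interval as a line. All 10 intervals include 0, and the widest is that of Lats2, from -0.60 to 0.56.

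Each of the 10 genes had at least 1868 estimated counts in every line, which makes the counting error 2.31% or less of a value, and the standard errors of the log2 fold changes were 0.07 to 0.25, with a median of 0.12 against 0.20 for all tested genes. Lats2, at 0.25, was the member with a standard error above that of the median tested gene. The coefficient of variation within a genotype had a median of 11.1% over the members and of 18.3% over all tested genes. It was lowest for Sav1 at 4.51% and Nf2 at 6.45%, and highest for Lats1 at 14.8% and Lats2 at 29.6%. All 10 members lay above the median level of the tested genes, where counting error is smaller.

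Levels of different genes can be compared only per length, so CPM was divided by the length of the longest coding transcript in kilobases. On this scale Yap1 (57.3 ± 4.04 CPM per kb, SD, n = 8 lines of both genotypes) and Mob1a (56.4 ± 4.09) were highest, and neither exceeded the other in more than 4 of 8 lines. Sav1 followed at 44.1 ± 1.90, then Wwtr1 at 37.2 ± 3.85 and Lats2 at 33.6 ± 9.28, where Sav1 exceeded Wwtr1 in all 8 lines and Wwtr1 exceeded Lats2 in 6. Every line of Lats2 was above every line of Nf2 (20.5 ± 1.42). Lats1 (15.4 ± 2.19) and Stk3 (15.0 ± 1.74) could not be ordered, each being higher in 4 lines, while Stk4 (12.3 ± 1.54) was below Stk3 in all 8 and Mob1b was lowest at 8.10 ± 0.94. The order depends on the length used, since the transcript lengths present in the cells are not in the table of counts. With the union of all exons Mob1a came first, followed by Wwtr1 and Yap1. With the median coding transcript Lats2 came first, at 201 CPM per kb, because 866 bases is its median annotated coding transcript, and Mob1b stayed lowest under both. The order of Stk3 and Stk4 reversed under both, at 7.15 and 11.0 CPM per kb with the union and 16.0 and 26.8 with the median.

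The paralog shares ask whether loss of SLMAP3 tilted a pair toward one partner. Per kilobase, Stk3 made up 58.4%, 52.2%, 54.7% and 55.7% of Stk3 and Stk4 in SLMAP3-/- lines 1 to 4, and 51.7%, 52.8%, 58.0% and 56.7% in WT lines. With this length the MST pair was carried in near-equal parts in both genotypes, at 55.2% ± 2.59 (SD, n = 4) and 54.8% ± 3.03 (SD, n = 4). The difference was 0.48 percentage points, with an interval from -5.85 to 6.76 from the exact permutation test.
Mob1a made up 88.9%, 87.3%, 87.2% and 86.8% of the MOB1 pair in SLMAP3-/- lines and 85.7%, 88.5%, 87.0% and 88.1% in WT lines. This was the narrowest spread of the 4 pairs in percentage points, but not in the log2 ratio of the pair. That ratio ran from 1.56 (WT line 1) to 1.97 (SLMAP3-/- line 1) for Mob1a to Mob1b. For Yap1 to Wwtr1 it ran from 0.254 (SLMAP3-/- line 1) to 0.616 (SLMAP3-/- line 3). Yap1 made up 57.3%, 63.1%, 63.3% and 59.3% of Yap1 and Wwtr1 in SLMAP3-/- lines and 61.2%, 57.9%, 61.0% and 62.1% in WT lines. The lowest 2 shares of Yap1 were those of SLMAP3-/- line 1 and WT line 2, the lines with the most Wwtr1.
The LATS pair was the one that shifted between lines. Lats1 made up 23.4%, 29.6%, 37.0% and 38.4% of it in SLMAP3-/- lines and 41.4%, 23.1%, 34.2% and 31.5% in WT lines, a span of 18.3 percentage points against 3.20 to 6.76 for the other pairs. The ranges of the genotypes overlapped over most of that span, and the means were 32.1% ± 6.97 (SD, n = 4) and 32.6% ± 7.57 (SD, n = 4).

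The difference in the log2 ratio of the pair (SLMAP3-/- minus WT), which does not depend on the lengths, was 0.03 for Stk3 to Stk4, -0.03 for Lats1 to Lats2, 0.03 for Mob1a to Mob1b and 0.01 for Yap1 to Wwtr1. The two-sided exact permutation p was 0.857, 0.971, 0.771 and 0.943 in that order, and 0.971 for each after Benjamini-Hochberg adjustment over the 4 ratios. The 95% intervals of the differences were -0.34 to 0.39, -1.21 to 1.05, -0.23 to 0.42 and -0.29 to 0.33. The LATS interval was the widest of the 4 and extended past a 2-fold change in either direction. Shares themselves depend on the lengths used. With the union of exons Stk3 made up 39.5% of its pair and Yap1 41.5%, and with the median coding transcript Lats1 made up 12.2%.

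**Figure D3:**
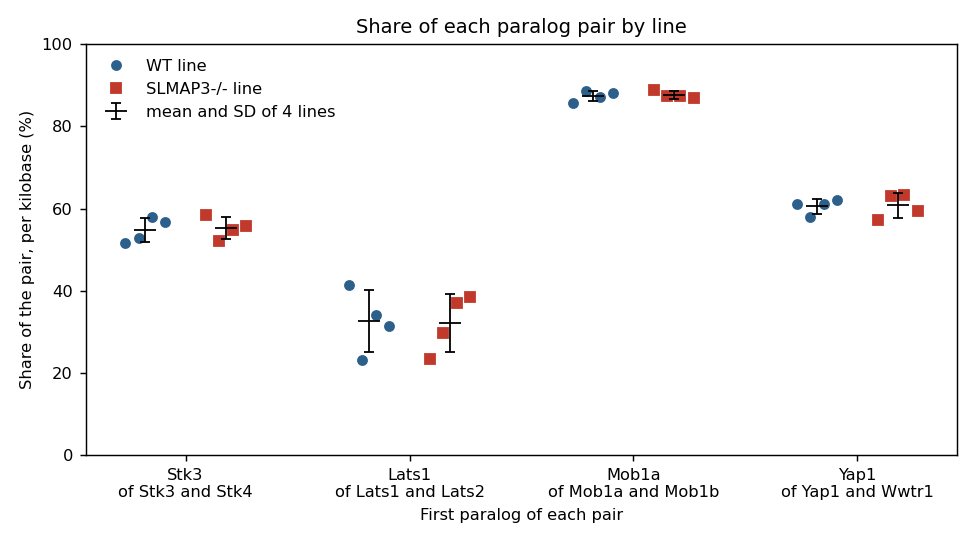
Share of the first-named paralog in each pair (vertical axis, percent of the sum of both per kilobase of longest coding transcript) in each WT line (blue circles) and SLMAP3-/- line (red squares), with lines 1 to 4 from left to right and mean and SD in black. Genotypes overlap in all pairs, and the Lats1 share runs from 23.1% to 41.4% across the 8 lines.

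Correlations among the members were examined over the 8 lines of both genotypes. Of the 45 pairs of members, 4 (8.89%) had an unadjusted exact permutation p under 0.05 for Pearson's r of log2 CPM. Pairs of a member with any other tested gene reached this in 8.34%, so the number of such pairs is near the background and only their values are described. Lats2 and Wwtr1 had r = 0.96 (exact permutation p = 0.000694) and Spearman's rho = 0.86 (exact permutation p = 0.0107). SLMAP3-/- line 1 and WT line 2 stood apart in both genes. Without them r was 0.82 over the other 6 lines (exact permutation p = 0.0417), and on deviations from the genotype means of all 8 it was 0.97. Lats1 and Mob1b had r = 0.96 (exact permutation p = 0.00151) and rho = 0.90 (exact permutation p = 0.00456), and SLMAP3-/- line 4 and WT line 1 stood apart. Without these 2 lines r fell to 0.73 (exact permutation p = 0.0931 over 6 lines), so this relation rests in part on them.
Stk3 and Sav1 had r = -0.79 (exact permutation p = 0.0193) and rho = -0.79 (exact permutation p = 0.0279), with r = -0.73 without WT lines 2 and 3. Mob1a and Nf2 had r = 0.75 (exact permutation p = 0.0402) and rho = 0.69 (exact permutation p = 0.0694), with r = 0.74 without SLMAP3-/- lines 3 and 4.
None of the 4 passed adjustment by Benjamini-Hochberg over the 15460 other tested genes correlated with the first member of the pair, with adjusted exact permutation p of 0.33 for Lats2 and Wwtr1, 0.287 for Lats1 and Mob1b, 1.00 for Stk3 and Sav1 and 0.312 for Mob1a and Nf2. Among those genes Wwtr1 ranked 13th by r with Lats2, and Lats2 ranked 10th by r with Wwtr1. Mob1b ranked 5th for Lats1, and Lats1 7th for Mob1b. For the first 2 of these pairs, another property of the lines is given beside them. It is the median level of genes with long coding transcripts (the upper quartile, 4482 bases or more) minus that of genes with short ones (1803 bases or fewer), each gene taken relative to its mean over the lines on the log2 scale. This value was lowest in SLMAP3-/- line 1 and WT line 2, at -0.08 and -0.07, the 2 lines with the most Lats2 and Wwtr1. SLMAP3-/- line 4, with the most Lats1 and Mob1b, had the highest value, 0.06, while WT line 1, also high in both, had a middling 0.01. These genes are all long by this definition, at 5191 bases for Lats2, 4697 for Wwtr1, 7209 for Lats1 and 8967 for Mob1b. Over the 8 lines the value had r = -0.69 with Lats2 and -0.73 with Wwtr1, but 0.54 with Lats1 and 0.53 with Mob1b. WT line 2 also had the lowest TMM factor, 0.941, against 0.980 to 1.06 in the other lines. Over the 8 lines the TMM factor had r = -0.72 with Lats2 and -0.68 with Wwtr1, against -0.21 with Lats1 and -0.17 with Mob1b. With libraries scaled by median-of-ratios size factors in place of TMM, r was 0.9563 for Lats2 and Wwtr1 and 0.9675 for Lats1 and Mob1b. The part of transcript length or of the TMM factor in the correlations was not tested.

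**Figure D4:**
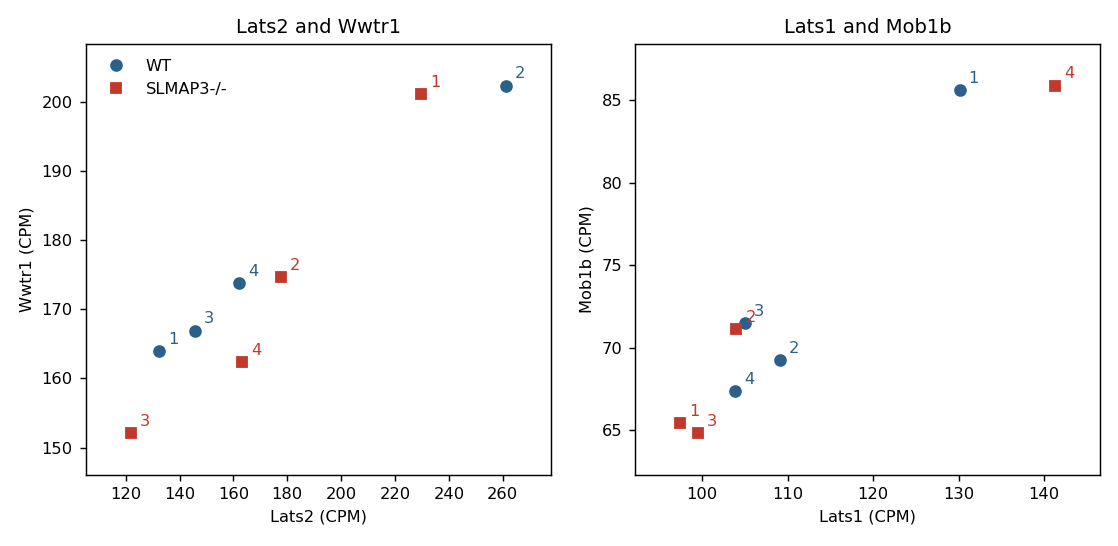
CPM of Lats2 against Wwtr1 (left) and of Lats1 against Mob1b (right) in the 8 lines, with WT lines as blue circles and SLMAP3-/- lines as red squares, each numbered by its line. SLMAP3-/- line 1 and WT line 2 lie at the top of the left plot, and SLMAP3-/- line 4 and WT line 1 at the top of the right plot.

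The genes whose levels ran most nearly parallel to a member were taken among 12770 tested genes with a mean of at least 1 CPM, by Pearson's r of log2 CPM over the 8 lines, as a description. For Lats2 they were Lmna, which encodes lamin A/C (r = 0.99), Thbs1, the matrix protein thrombospondin 1 (r = 0.98, 4995 to 12414 CPM), and Nipa2, a magnesium transporter (r = 0.97). For Wwtr1 they were Nipa2 (r = 0.99), the cyclin Ccny (r = 0.98) and Mob3a, of the MOB family (r = 0.98). For Yap1 they were Pla2g4a, a cytosolic phospholipase A2 (r = 0.96), Mff, a mitochondrial fission factor (r = 0.96), and Itgb1bp1, an integrin-binding protein (r = 0.94). Nipa2 stood in the lists of both Lats2 and Wwtr1, and no gene of the Yap1 list stood in either. Without the 2 lines farthest from the median of the member, these r were 0.88 to 0.97 for Lats2, 0.93 to 0.99 for Wwtr1 and 0.80 to 0.85 for Yap1.

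Whether the members tracked the output of YAP and TAZ was asked with the mean log2 CPM of 21 YAP-responsive genes, such as Ccn1, Ccn2 and Ankrd1, without Lats2. That mean was 6.42 ± 0.24 (SD, n = 4) with the knockout and 6.39 ± 0.33 (SD, n = 4) without it, lowest in WT line 3 at 5.96 and highest in WT line 2 at 6.74. Its correlation over the 8 lines was r = 0.19 with Yap1 (exact permutation p = 0.648, rho = 0.24 with exact permutation p = 0.582) and r = 0.52 with Wwtr1 (exact permutation p = 0.168, rho = 0.48 with exact permutation p = 0.243). Neither relation passed 0.05. Lats2, itself YAP-responsive, had r = 0.63 (exact permutation p = 0.0891, rho = 0.69 with exact permutation p = 0.0694). Mob1a had the highest r of the 10 members, 0.72 (exact permutation p = 0.0453, rho = 0.67 with exact permutation p = 0.0831), and the other 6 lay between -0.54 (Stk3) and 0.64 (Nf2). Of the tested genes, 92.1% had a lower r with the list mean than Mob1a. Adjusted over the 15440 tested genes outside the list, the exact permutation p was 0.306 for Mob1a and higher for the others. Without the 2 lines farthest from the median of the list, SLMAP3-/- line 3 and WT line 3, r stayed at 0.51 for Sav1. For Stk3 it went from -0.54 to -0.65, for Lats1 from 0.40 to 0.23, for Mob1b from 0.33 to 0.18 and for Stk4 from -0.02 to 0.02. Without the same 2 lines r was 0.33 for Mob1a, 0.44 for Lats2, 0.23 for Wwtr1 and -0.01 for Yap1, and for Nf2 it turned from 0.64 to -0.07. The relations of Mob1a and Nf2 thus rest on those lines. They also had the highest TMM factors, 1.04 and 1.06.

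The rest of the pathway was followed in 5 lists holding 80 genes, and 76 had enough counts to be tested. In edgeR's quasi-likelihood test all 76 kept an adjusted p above 0.05, and the unadjusted p was under 0.05 for 2 of them, against 1.81% of all tested genes, which is a share near the background. These 2 were Rassf5 and Mark2, which were named after their values were seen. Of the 76, 40 were higher and 36 lower in SLMAP3-/- lines, with a median log2 fold change of 0.01.

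Among 22 upstream adaptors and scaffolds, all tested, the median log2 fold change was 0.08, with 14 higher and 8 lower. Wwc1, which encodes the LATS activator KIBRA, had the largest positive value. It had 80.2, 59.4, 63.04 and 99.7 CPM in SLMAP3-/- lines and 61.7, 79.6, 51.1 and 35.9 CPM in WT lines, overlapping ranges with a log2 fold change of 0.41 (95% interval -0.17 to 0.99). Rassf6, a RASSF protein that binds MST kinases, had the most negative value, -0.81 (95% interval -2.17 to 0.56), at only 0.627 to 4.88 CPM. Rassf5, another MST-binding RASSF protein, had 3.77, 5.24, 7.26 and 4.68 CPM in SLMAP3-/- lines against 6.61, 8.34, 7.99 and 11.1 CPM in WT lines. Of these only SLMAP3-/- line 3 reached into the WT range, and the log2 fold change was -0.70 (SE 0.25, unadjusted p = 0.0218 and adjusted p = 1.00 in edgeR's quasi-likelihood test).

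The 20 other kinases of the network, all tested, had a median log2 fold change of -0.00, with 9 higher and 11 lower. Mark2, a polarity kinase, had 56.4, 57.1, 59.5 and 69.6 CPM in SLMAP3-/- lines and 53.0, 52.6, 49.7 and 50.9 CPM in WT lines. No SLMAP3-/- line overlapped a WT line for Mark2, as for 1.25% of all tested genes, with a log2 fold change of 0.23 (SE 0.09, unadjusted p = 0.0262 and adjusted p = 1.00 in edgeR's quasi-likelihood test). Tnik, of the same kinase family as the MAP4Ks, had the largest positive value, 1.39 (95% interval -0.15 to 2.93), from as few as 9 counts and with SLMAP3-/- line 2 at 1.60 CPM against 0.145 to 0.482 CPM in the other 7 lines. Map4k1, of the MAP4K family that can phosphorylate LATS, had the most negative value, -0.53 (95% interval -1.54 to 0.47).

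Of 16 STRIPAK members, 14 were tested, with a median log2 fold change of -0.03 and values from -0.18 (Strip2) to 0.09 (Strn4). Strn4, a striatin scaffold, had 118, 108, 109 and 111 CPM in SLMAP3-/- lines against 104, 109.8, 104 and 100.2 CPM in WT lines, and WT line 2 overlapped the SLMAP3-/- lines. Cttnbp2 had at most 25 counts in a line and Traf3ip3, the paralog of Slmap, at most 1 count in any line of either genotype, so neither was tested. Among 8 TEAD factors and VGLL cofactors, the DNA-binding partners of YAP and TAZ and their competitors, 6 were tested, with a median of 0.05. Tead2 had the largest positive value, 0.15 (136 ± 28.6 CPM in SLMAP3-/- and 123 ± 30.9 in WT lines, SD, n = 4), and Tead4 the 1 negative value, -0.13. Vgll1 was at 0 in all lines and Vgll2 had at most 22 counts in a line.

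All 14 genes for cytoplasmic retention and turnover of YAP and TAZ were tested, with a median of 0.00. Sfn, the 14-3-3 sigma protein, had the largest positive value of the 5 lists, with 6.68, 10.7, 5.29 and 17.2 CPM in SLMAP3-/- lines against 3.85, 7.70, 0.927 and 1.34 CPM in WT lines. The ranges overlapped through WT line 2, and the log2 fold change of 1.53 had a 95% interval from -0.02 to 3.08 (unadjusted p = 0.0526 and adjusted p = 1.00 in edgeR's quasi-likelihood test). Usp9x, a deubiquitinase, had the lowest value of the list, -0.06.

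**Figure D5:**
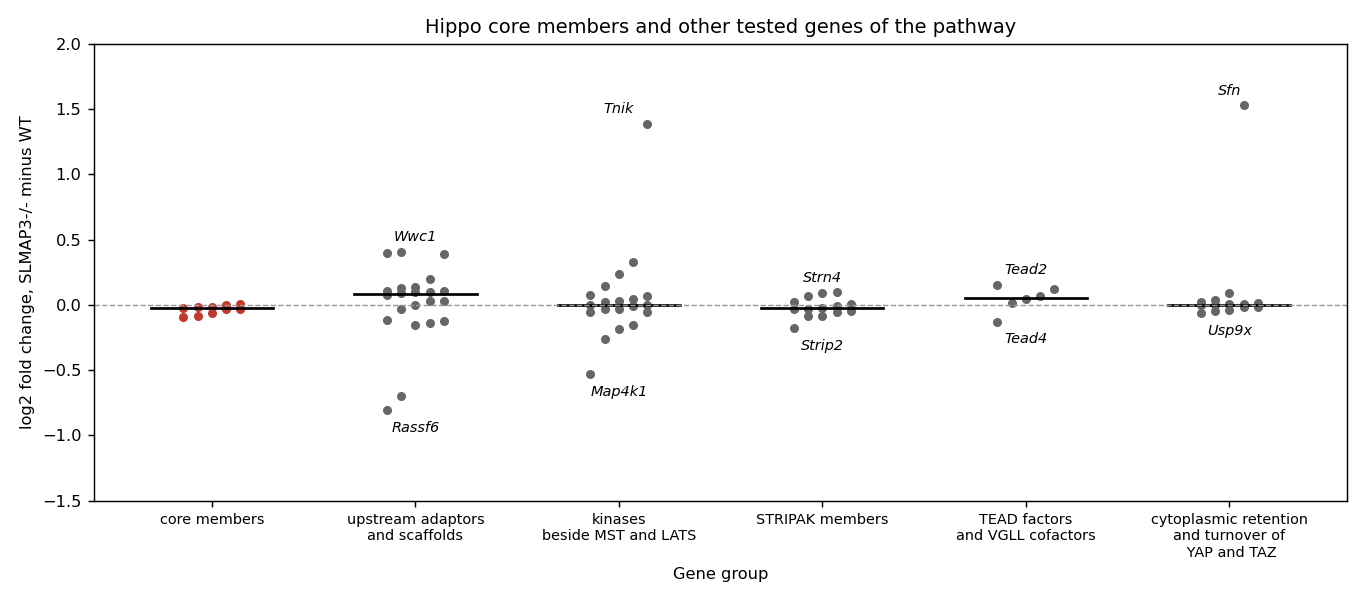
The log2 fold change (vertical axis, SLMAP3-/- minus WT, from edgeR) of each core member (red) and of each tested gene in 5 other groups of the pathway (grey), with the median of each group as a black bar and the extreme genes named. The core members lie within -0.09 to 0.01, and the group medians lie between -0.03 and 0.08.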

How the data were processed

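Libraries were made with a stranded messenger RNA kit from immortalized MEFs, 4 lines SLMAP3-/- and 4 WT. The authors quantified reads with Salmon against GENCODE M25 (GRCm38), and the deposited value is a length-scaled estimated count per gene and line, with no normalization across lines. Versions of Salmon and DESeq2 are not given in the sources used here. The deposited table of the authors' DESeq2 comparison, with fold changes and p-values, was not used.

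Groups came from the genotype in the labels. Estimated counts were rounded. In R 4.3.3, edgeR 4.0.16 (filterByExpr with a minimum count of 10, TMM, glmQLFit and glmQLFTest, no covariate) was fitted to the whole table, with Benjamini-Hochberg adjustment over 15461 genes and 0.05 as threshold. Standard errors come from the log2 fold change and F, and 95% intervals from the t distribution with the total degrees of freedom. A prior count of 2 was used for log2 CPM. Permutation tests were exact and two-sided (scipy 1.17.1), and intervals of shares and ratios hold the shifts that such a test does not reject. The tools were checked on simulated counts first. Totals were 49879059 to 63322486 counts. For the 10 members the counting error was 2.31% or less, below a coefficient of variation within a genotype of 4.51% or more. For list genes with few counts, such as Tnik, the part of depth was not tested. The labels do not say what the number 10 shared by the names of SLMAP3-/- line 3 and WT line 4 marks, and with no other such pair it could not be used as a block.

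The members and lists were chosen with earlier results of these data known. Named genes are the 10 members, Slmap, the highest and lowest log2 fold change of each list, any list gene with an adjusted p under 0.05, and the 3 genes with the highest r for Lats2, Yap1 and Wwtr1. Rassf5 and Mark2 fall outside this rule and were named after their unadjusted p was seen, as was Gm49361, for its overlap with Lats2. Correlations with the YAP-responsive mean were to be adjusted over the 10 members and were instead adjusted over all tested genes outside the list. Lengths, positions and shared 31-base words come from GENCODE M21, of the same build, and promoters from RefSeq. Alternatives were DESeq2 1.42.0, limma-voom (limma 3.58.1), DESeq2 size factors, other filters, robust empirical Bayes, counts not rounded, Y-linked expression as a covariate, a replicate block and leaving out each line. Correlations between members were added after seeing the data.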

Additional observations from a re-analysis of the deposited data

Results flagged for a closer look

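Among 28 groups of 4 lines (10 genes and 4 paralog ratios in each genotype), 1 line lay far from the other 3 in 2 groups, judged by its gap to the nearest line as a share of the whole range. Sav1 in SLMAP3-/- line 2 had a ratio of 0.848, with 117 CPM against 109 to 111 CPM in the other SLMAP3-/- lines. Lats1 in SLMAP3-/- line 4 had a ratio of 0.85, with 141 CPM against 97.4 to 104 CPM. Chance gives about 1 in 20 such groups, or 1.4 of 28.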

How the results depend on the processing

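No member had an adjusted p under 0.05 in any of 17 alternatives, the lowest adjusted p being 0.945. Over all genes the number with an adjusted p under 0.05 was 0 to 11 in these alternatives. Of 170 recomputed log2 fold changes of the members, 146 kept their direction and 24 changed sign, 23 of them with a line left out. Mob1a was also 0.0016 with no filter on low counts. Leaving out 1 line in turn gave -0.15 to 0.018 for Stk3, -0.15 to 0.026 for Stk4, -0.017 to 0.042 for Sav1, -0.16 to 0.065 for Lats1, -0.18 to 0.24 for Lats2, -0.062 to 0.055 for Mob1a, -0.13 to 0.054 for Mob1b, -0.075 to 0.033 for Yap1 and -0.12 to 0.037 for Wwtr1. The log2 ratios of paralogs ran from -0.034 to 0.0905 for Stk3 to Stk4, -0.25 to 0.18 for Lats1 to Lats2, -0.043 to 0.078 for Mob1a to Mob1b and -0.0398 to 0.082 for Yap1 to Wwtr1. Without the 2 lines farthest from the median of the YAP-responsive mean, r became 0.023 for Stk4, -0.073 for Nf2 and -0.011 for Yap1. Correlations between members were chosen after seeing the data.

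The number of differentially expressed genes was 1 in edgeR and 11 in DESeq2. It was 0 with the replicate block, where the log2 fold change of Slmap was -1.84, as without the block, with an adjusted p of 0.171 and 294 genes an unadjusted p under 0.05. Deviations of same-numbered lines from their genotype means correlated at -0.16, 0.06, 0.19 and -0.00 for numbers 1 to 4. Of the 4 SLMAP3-/- lines, 1 correlated best with the WT line of its number. The 0.19 of number 3 was the highest of all pairs across genotypes. The names of lines with the same replicate number have no number in common, so the labels do not pair them. So few pairs cannot show whether same-numbered lines share more than a replicate number. SLMAP3-/- line 3 and WT line 4, which share a number in their names, correlated at 0.13, within the -0.16 to 0.19 of all pairs across genotypes. The block changed no call for a member or a paralog ratio. For the members the counting error, 2.31% or less, was below the coefficient of variation within a genotype, 4.51% or more. For the other genes the part of depth was not tested.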
